A study of Mus musculus with 1778 samples.

Results

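The genes described here are Trp53, which encodes the transcription factor p53, and 8 of its target genes for arrest, stress control and apoptosis. They are 9 of the 24920 genes of the deposited table, they were chosen by name, with earlier results of these data known, and all 9 were found. The feedback genes are Mdm2 and Ccng1, the arrest and stress genes are Cdkn1a, Sesn2 and Phlda3, and the apoptosis genes are Pmaip1 (NOXA), Bbc3 (PUMA) and Bax. Their levels were read across 4 stages and 8 plate numbers, and in cells with and without reads of Fos or Sox10.

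The p53 protein is kept low by the ubiquitin ligase MDM2, itself the product of a p53 target gene, and is mostly regulated by protein stability rather than by the amount of its messenger RNA. When it is stabilised by DNA damage or by nucleolar stress, it activates genes that stop the cell cycle and genes that permeabilise mitochondria. Cranial neural crest cells and their neuroepithelial progenitors are known to be sensitive to this pathway: in mice, loss of a copy of the nucleolar gene Tcof1 causes p53-dependent death of these cells.

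Cells sorted on TdTomato came from Wnt1::Cre; Rosa26TdTomato embryos on the C57BL/6 background, at 4, 6, 8 and 10 somites. Every stage carried both alleles and none received a treatment named in the labels. Wnt1-Cre marks the dorsal neural tube as well as the crest, so the sort is not specific to migrating crest. Each sorted cell was 1 Smart-Seq2 library, a plate method that reads whole transcripts and counts reads without molecular identifiers.

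After filtering, 220, 835, 227 and 446 cells of 4, 6, 8 and 10 somites remained, 1728 of 1778, with 92185 to 2098451 reads on genes and a median of 859223. The labels name no embryo, so each stage was 1 pool, no test across replicates was possible, and no p-value is given. The plate number is the number in each title, lettered A to H here in ascending order, and the labels do not say what it stands for. Of the 12 groups of cells that share a stage and a plate number, 3 plates link stages: plate F holds 4 and 6 somites, plate B holds 6, 8 and 10 somites, and plate D holds 4 and 8 somites. Levels are given as RPM, reads per 1000000 reads on genes, and the 45S pre-ribosomal RNA Rn45s took 55.0%, 59.2%, 44.4% and 50.1% of them at 4, 6, 8 and 10 somites. The crest marker Sox10 was read in 17.7%, 32.8%, 75.8% and 80.5% of the cells of these stages, and 844 of 1728 cells held it in all. This share also differed between plates of a stage, with 27.2% and 10.9% on plates D and F of 4 somites. On plates A, B, E, F and H of 6 somites it was 90.9%, 70.8%, 27.9%, 9.44% and 43.6%. Markers of neuroepithelium, surface ectoderm and endothelium were also present at every stage.

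The promoters are shown because 5 of the 8 genes with a RefSeq promoter entry held the p53 half-site consensus, a 10-base palindrome of which a pair makes a full p53 response element. Each line gives the 250 bases before the start site in GRCm38.p6 from RefSeq, read 5′ to 3′ on the gene's own strand, with the half-site matches in capitals. The windows are chr17:29090729-29090978 (plus strand) for Cdkn1a, chr10:117710759-117711008 (minus strand) for Mdm2, chr11:40755287-40755536 (minus strand) for Ccng1, chr11:69580109-69580358 (plus strand) for Trp53 and chr7:45466899-45467148 (minus strand) for Bax.
Cdkn1a: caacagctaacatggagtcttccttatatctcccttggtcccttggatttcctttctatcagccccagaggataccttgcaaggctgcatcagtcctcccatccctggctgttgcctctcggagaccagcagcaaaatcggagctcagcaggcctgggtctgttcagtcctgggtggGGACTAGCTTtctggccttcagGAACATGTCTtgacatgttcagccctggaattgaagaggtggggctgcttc
Mdm2: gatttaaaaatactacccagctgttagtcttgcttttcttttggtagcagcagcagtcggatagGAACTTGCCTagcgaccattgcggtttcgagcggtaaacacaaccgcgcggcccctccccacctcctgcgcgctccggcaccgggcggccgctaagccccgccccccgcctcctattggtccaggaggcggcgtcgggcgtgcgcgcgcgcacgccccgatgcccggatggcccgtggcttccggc
Ccng1: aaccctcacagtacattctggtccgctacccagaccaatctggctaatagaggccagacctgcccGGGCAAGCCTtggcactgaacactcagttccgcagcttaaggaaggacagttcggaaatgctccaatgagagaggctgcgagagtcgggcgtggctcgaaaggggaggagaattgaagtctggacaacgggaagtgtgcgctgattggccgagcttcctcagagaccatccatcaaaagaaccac
Trp53: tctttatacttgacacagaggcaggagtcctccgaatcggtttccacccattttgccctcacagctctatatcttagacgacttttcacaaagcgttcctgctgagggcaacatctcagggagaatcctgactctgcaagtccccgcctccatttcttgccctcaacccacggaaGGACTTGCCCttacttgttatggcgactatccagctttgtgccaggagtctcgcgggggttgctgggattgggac
Bax: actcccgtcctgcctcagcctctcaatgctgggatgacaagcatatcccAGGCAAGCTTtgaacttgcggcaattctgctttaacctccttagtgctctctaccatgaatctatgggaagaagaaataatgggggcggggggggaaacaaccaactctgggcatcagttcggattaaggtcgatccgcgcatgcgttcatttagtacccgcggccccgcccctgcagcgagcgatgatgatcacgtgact
The matches began 73 and 51 bases before the upstream start of Cdkn1a, and 186 bases before the start in Mdm2, 185 in Ccng1, 75 in Trp53 and 201 in Bax. The consensus reads the same on both strands, overlapping matches were allowed, and 8.36% of all 32851 RefSeq promoter windows, which also hold the 50 bases after the start, had at least 1 match. Among the members' windows, only the Cdkn1a window printed here had 2 matches no more than 13 bases apart, a pair found in 24 windows, or 0.0731%. The windows of Phlda3 and Sesn2, all 3 windows of Bbc3 and the second Cdkn1a window held no match, and Pmaip1 is named only. That second Cdkn1a window, of a start further downstream, is chr17:29093519-29093818 (plus strand). A match is a description of letters in this window and not a measured binding site.

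Trp53, on chromosome 11 (GENCODE vM21 on GRCm38: 69580359 to 69591873), was the most abundant of the 9 genes and nearly level across stages. It had 163, 142, 196 and 174 RPM at 4, 6, 8 and 10 somites, and a read in 98.7% to 100% of the cells of each stage at 50000 reads per cell. Its level moved with the share of Rn45s reads: with Rn45s left out of the total, Trp53 had 363, 347, 353 and 348 RPM. Between plates the spread was larger than between stages, with 120 and 198 RPM on both plates of 4 somites and 116 to 195 RPM on the 5 plates of 6 somites, and all 4 stages overlapped. Per kilobase of exon, Trp53 had 35.0 to 48.4 RPM across stages. The processed pseudogene Trp53-ps, on chromosome 17, is a near copy, and no source used here says how the counting divided reads between them.

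Mdm2, the ligase that degrades p53, had 41.1, 35.4, 44.3 and 35.4 RPM at 4, 6, 8 and 10 somites. Its plates ran between 25.5 and 53.4 RPM at 4 somites and between 25.6 and 43.7 RPM at 6 somites, so the stages overlapped. With Rn45s left out of the total, the order of the stages changed, and Mdm2 had 91.4, 86.6, 79.8 and 70.9 RPM. Ccng1 encodes cyclin G1, a regulator of MDM2 through protein phosphatase 2A, and had 21.6, 14.1, 21.2 and 17.8 RPM. At 8 somites, 1 cell held 20.1% of the Ccng1 reads, at 1114 RPM, and without it the level was 17.0 RPM.

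Cdkn1a, the cyclin-dependent kinase inhibitor p21 and the main arrest gene of the pathway, was low at every stage. It had 1.64, 2.36, 2.06 and 1.69 RPM at 4, 6, 8 and 10 somites. Its 12 groups ran from 0.522 to 4.27 RPM, with the highest levels on plates A and B of 6 somites, and the stages overlapped. A read was found in 4.55%, 7.19%, 3.96% and 4.48% of cells at 50000 reads per cell, with intervals that overlapped (2.20% to 8.20% at 4 somites and 2.76% to 6.84% at 10). Most of the reads came from few cells: the tenth of cells with the highest level held 92%, 87.9%, 98.7% and 95.8% of the summed per-cell level. At 8 somites a single cell carried 195 of the 436 Cdkn1a reads, and the stage had 1.14 RPM without it. Cdkn1a shares 273 exon bases with a transcript on the opposite strand, whose reads cannot be told apart from its own where the counting did not use strand, and no source used here says whether it did.

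Sesn2, an inhibitor of mTORC1 that is also induced by the integrated stress response, had 8.46, 8.71, 11.6 and 9.80 RPM. Its highest groups were plates A and B of 6 somites, at 23.5 and 20.1 RPM, against 6.66 to 7.65 RPM on the other 3 plates of that stage. With Rn45s left out of the total, Sesn2 had 18.8, 21.3, 20.9 and 19.6 RPM from 4 to 10 somites. Phlda3, which competes with Akt for membrane lipids, had 2.04, 2.58, 3.59 and 4.14 RPM. These low levels differed more between plates than between stages, with 1.72 to 7.18 RPM among the plates of 6 somites.

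Among the apoptosis genes Pmaip1 was the one that moved. Pmaip1 encodes NOXA, a BH3-only protein that neutralises MCL1, and lies on chromosome 18 (66458533 to 66465565). It had 52.2, 27.1, 4.00 and 2.71 RPM at 4, 6, 8 and 10 somites, and a read in 57.7%, 32.7%, 11.9% and 5.38% of cells at 50000 reads per cell. With each cell at 200000 reads the shares were 68.6%, 42.4%, 19.4% and 11.3%, in the same order. Fewer cells of a type and less RNA per cell cannot be told apart in these sums.

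Plate by plate, Pmaip1 had 24.6 and 74.0 RPM at 4 somites, then 8.56, 12.3, 24.7, 51.9 and 8.16 RPM at 6 somites. It had 3.76 and 6.39 RPM at 8 somites, and 5.78, 2.07 and 3.48 RPM at 10 somites. Both plates of 4 somites and all 5 of 6 somites lay above every plate of 8 and 10 somites, while 4 and 6 somites overlapped, as did 8 and 10 somites.

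Bbc3 encodes PUMA, a BH3-only protein that binds all anti-apoptotic BCL2 relatives, and had 2.81, 2.12, 4.43 and 3.98 RPM. Bax encodes the pore-forming effector and had 37.2, 34.5, 40.4 and 40.5 RPM, with a read in 76.5% to 81.5% of cells. With Rn45s left out of the total, Bax had 82.8, 84.6, 72.6 and 81.1 RPM, the lowest at 8 somites. Per kilobase of exon, Bax stood at 21.9 to 25.7 RPM, against 19.1 RPM for Pmaip1 at 4 somites and 0.992 RPM for Pmaip1 at 10 somites. Bax shares 192 exon bases with Gm45808 on the same strand, so part of its reads could be assigned to either. Its highest group was the plate with 12 cells of 10 somites, at 81.8 RPM, against 24.3 to 45.5 RPM in the other 11 groups.

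**Figure D1:**
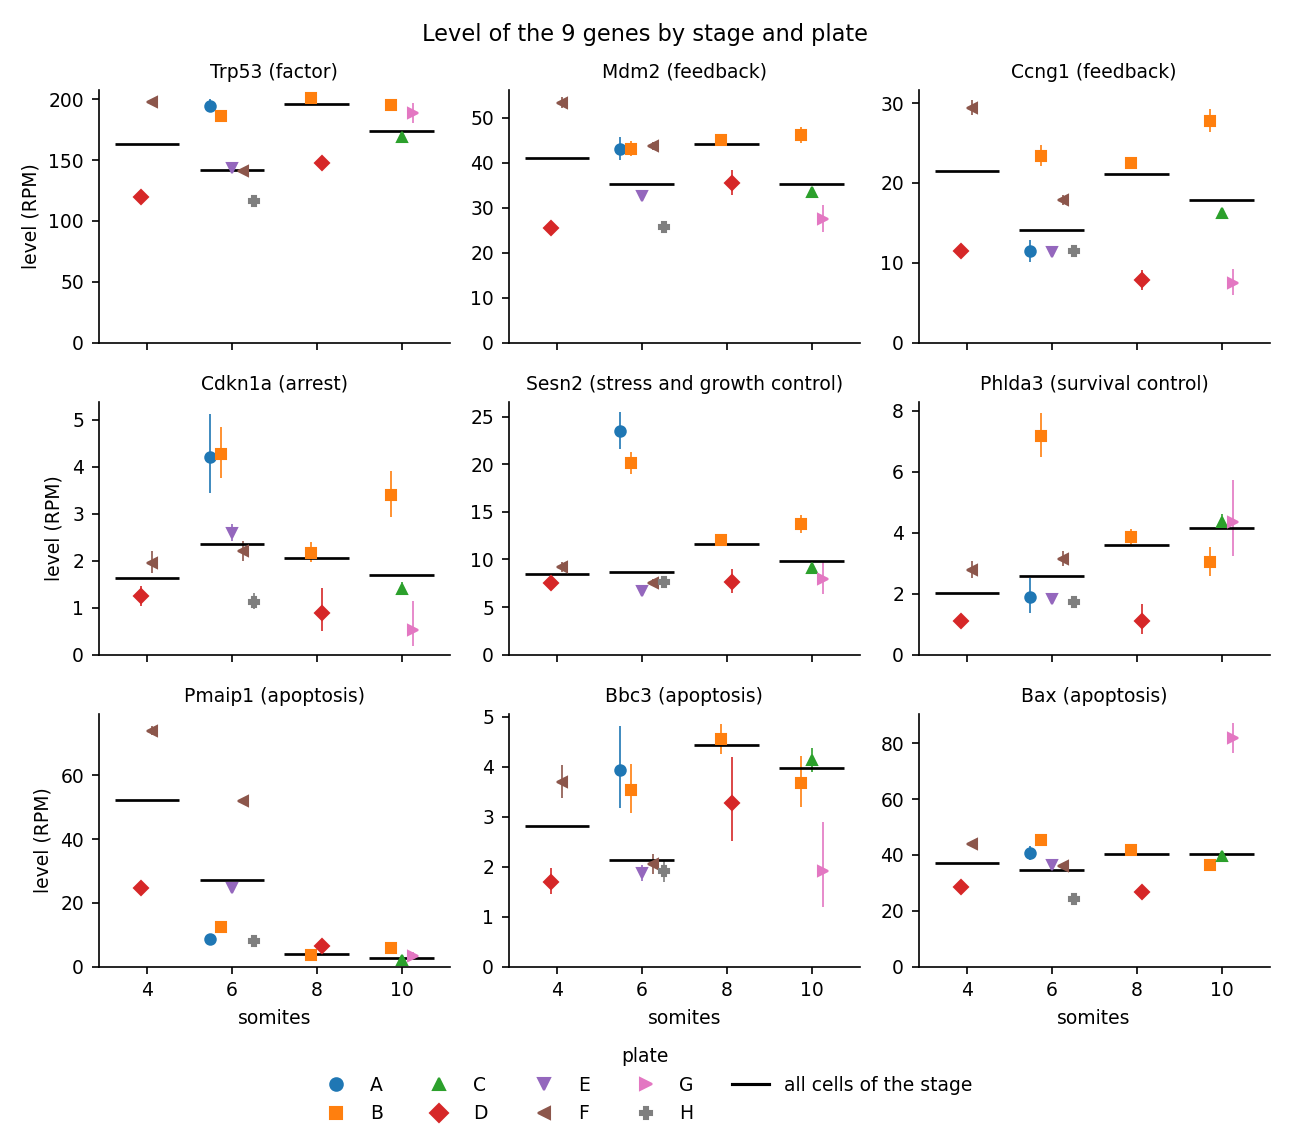
Level of each of the 9 genes in RPM (vertical axis, from 0) by stage in somites (horizontal axis). Each marker is 1 stage and plate (A to H) with its 95% Poisson interval, the black lines are the level over all cells of a stage, and Pmaip1 is the gene whose plates of 8 and 10 somites, at 2.07 to 6.39 RPM, all lie below its plates of 4 and 6 somites.

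**Figure D2:**
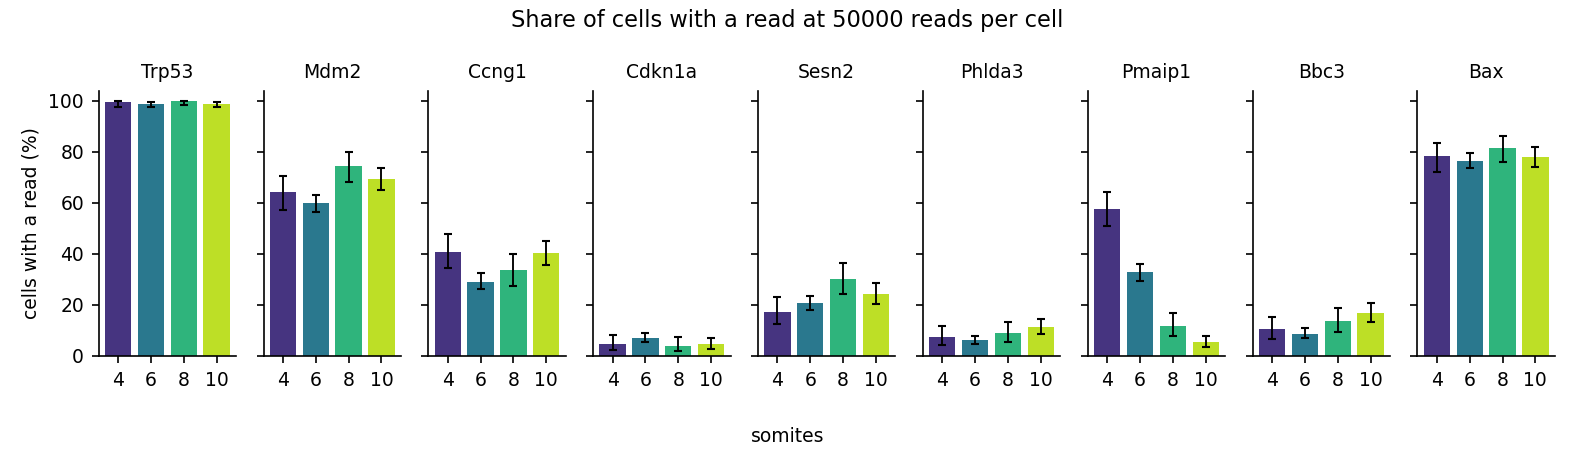
Percent of cells with at least 1 read after thinning each cell to 50000 reads (vertical axis) by stage in somites, with exact binomial 95% intervals. Pmaip1 goes through 57.7%, 32.7%, 11.9% and 5.38% from 4 to 10 somites, while Trp53 is at 98.7% or more and Cdkn1a at 7.19% or less.

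For each pair of stages, a log2 ratio of RPM was taken over all cells of both, with 95% intervals that cover counting error only, for genes with at least 5 RPM in either stage. A difference of at least 2-fold was called. For 10 against 4 somites, 6 of the 9 genes were measured, 0 were called higher and 1 was called lower, Pmaip1. Among all 8805 genes measured, 6.7% were called higher and 3.96% lower, so the count of members called lower rests on 1 gene.

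Pmaip1 fell to 2.71 RPM at 10 somites, against 52.2 RPM at 4 somites, a log2 ratio of −4.27 (−4.36 to −4.17). Within plate numbers the ratio was smaller, −1.60 by way of 6 somites and −1.32 by way of 8 somites. The route by way of 6 somites joins plates F and B, where 9.44% and 70.8% of the cells of 6 somites held a Sox10 read. The route by way of 8 somites uses plate D, with 15 cells of 8 somites and 92 of 4 somites. Of these, 14 and 25 held a Sox10 read. Both ratios within plates use plate B for 10 somites, where 219 of the 322 Pmaip1 reads came from 1 of 55 cells. That cell had 224 RPM of Pmaip1 and 1941 RPM of Fos, and 0 reads of Cdkn1a, Ccng1, Phlda3 and Sesn2. Without it the group had 1.88 RPM, and the ratios within plates were −3.22 by way of 6 somites and −2.93 by way of 8 somites.

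The other members measured were within 2-fold. Trp53 had a log2 ratio of 0.09 over all cells for 10 against 4 somites and −0.42 within plates, Mdm2 had −0.22 and −0.19, and Ccng1 had −0.27 and −0.47. Sesn2 had 0.21 over all cells and −0.84 within plates, and Bax had 0.12 and −0.60. The median gene moved by 0.17 over all cells and by −0.29 within plates in this comparison, and by 0.02 by way of 8 somites. Below the 5 RPM limit, Cdkn1a had 0.04, Bbc3 had 0.50 and Phlda3 had 1.02 over all cells. All 3 turned within plates by way of 6 somites, with Cdkn1a at −0.16, Bbc3 at −0.79 and Phlda3 at −1.06. By way of 8 somites Cdkn1a had 0.19, Bbc3 had 0.65 and Phlda3 had −0.31.

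**Figure D3:**
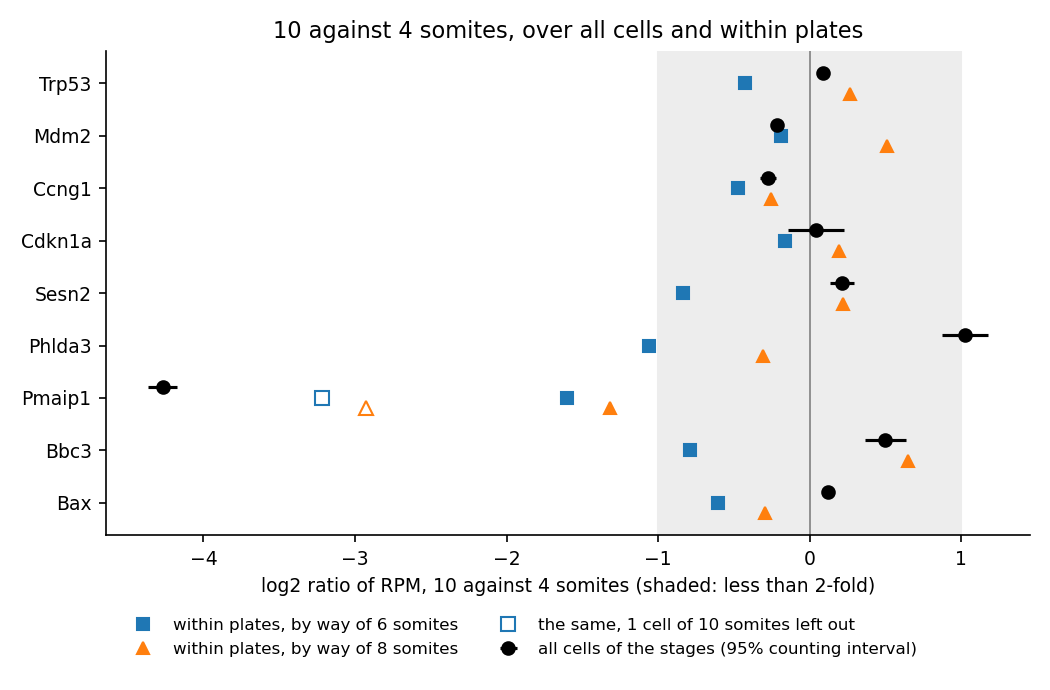
Log2 ratio of RPM for 10 against 4 somites (horizontal axis) for the 9 genes (rows). Black points use all cells with 95% counting intervals, blue squares and orange triangles use plates that hold both stages of each step, open symbols leave out 1 cell of 10 somites, and the shaded band marks less than 2-fold; Pmaip1 lies outside the band by every route, from −4.27 to −1.32.

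By steps, 6 against 4 somites gave 0 members higher and 0 lower of 6 measured, with 0.842% of 8437 genes higher and 0.616% lower. Pmaip1 was nearest to the limit there, at 27.1 RPM at 6 somites and 52.2 RPM at 4 somites, a log2 ratio of −0.94, and on plate F alone it had 51.9 RPM at 6 somites and 74.0 RPM at 4 somites, a log2 ratio of −0.51.

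The step of 8 against 6 somites held the largest change of Pmaip1 among the 3 steps. Pmaip1 fell to 4.00 RPM at 8 somites, against 27.1 RPM at 6 somites, a log2 ratio of −2.76 (−2.86 to −2.66), and on plate B it had 3.76 RPM at 8 somites and 12.3 RPM at 6 somites, a log2 ratio of −1.71. Of the 6 members measured, 0 were higher and 1 was lower, with 8.75% of 8866 genes higher and 0.88% lower. The median gene moved by 0.45 in this step and by 0.11 within the plate, and the Rn45s share was 44.4% at 8 somites and 59.2% at 6 somites. Bbc3, below the limit of 5 RPM at both stages, had 4.43 RPM at 8 somites and 2.12 RPM at 6 somites, a log2 ratio of 1.06 that was 0.36 within the plate.

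For 10 against 8 somites, 0 of the 5 members measured were higher and 0 lower, with 0.181% of 8826 genes higher and 0.94% lower. Pmaip1 was under 5 RPM at both stages, at 2.71 RPM at 10 somites and 4.00 RPM at 8 somites. On plate B it had 5.78 RPM at 10 somites and 3.76 RPM at 8 somites, and without the 1 cell described above it had 1.88 RPM at 10 somites, so that cell decides the direction on this plate.

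The fall of Pmaip1 was found on both sides of the Sox10 split. In cells with a Sox10 read it had 43.4, 12.5, 2.29 and 1.92 RPM at 4, 6, 8 and 10 somites. The log2 ratio for 10 against 4 somites was −4.50. The level at 4 somites pooled 15.9 RPM in 25 cells of plate D and 92.2 RPM in 14 cells of plate F. In cells without a Sox10 read Pmaip1 had 54.3, 33.8, 9.35 and 6.34 RPM, a log2 ratio of −3.10. Both ratios pool the plates of each stage, so differences between plates enter them. At 50000 reads per cell, a Pmaip1 read was found in 22.2% of 18 cells with a Sox10 read at 4 somites. At 6, 8 and 10 somites the shares were 19.2%, 6.41% and 3.76%. In cells without a Sox10 read at this depth they were 60.9%, 38.2%, 23.9% and 11% from 4 to 10 somites. In cells without a Fos read the Pmaip1 ratio for 10 against 4 somites was −5.09. The neural crest list moved the other way, with 8 of its 9 measured genes at least 2-fold higher at 10 against 4 somites and summed levels of 108, 226, 657 and 655 RPM from 4 to 10 somites, and 6 of 9 measured neuroepithelium genes passed 2-fold in the lower direction, their list summing to 283, 195, 189 and 140 RPM. Of 8 measured surface ectoderm genes 5 were at least 2-fold lower, with summed levels of 241, 263, 203 and 129 RPM. Within plates by way of 6 somites, 3 of these 5 were 2-fold lower and the median of the list was −0.35, against −1.57 over all cells. On plate B the list summed to 236, 220 and 223 RPM at 6, 8 and 10 somites. On plate D it summed to 218 RPM at 4 somites and 27.8 RPM in the 15 cells of 8 somites. By way of 8 somites, the genes with the largest ratios over all cells, Cdh1, Epcam, Esrp1 and Grhl2, had −6.70, −4.53, −4.34 and −3.28. The part of cell makeup in the Pmaip1 levels was not tested.

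The other genes of the pathway, taken from lists that were drawn up with earlier results of these data known, mostly stayed within 2-fold for 10 against 4 somites. Of 21 measured genes among 43 p53 targets, 1 was higher and 1 lower, with a median log2 ratio of 0.10, against 0.17 over all genes measured. Within plates the median of the list was −0.61, or −0.32 relative to the median gene. The higher one was Plk2, a polo-like kinase, at 27.7 RPM at 10 somites and 6.86 RPM at 4 somites, a log2 ratio of 2.01 that was 1.48 within plates and −4.87 by way of 8 somites. The lower one was Btg2, an antiproliferative gene that is also an immediate early gene, at 7.19 RPM at 10 somites and 17.0 RPM at 4 somites, a log2 ratio of −1.24 that was −1.33 within plates and 0.28 by way of 8 somites. Ei24 had 0.79, which turned to −0.54 within plates, and Tigar, a regulator of glycolysis, had −0.73, which was −1.13 within plates.

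Of 22 regulators of p53, 20 were measured and 0 passed 2-fold over all cells, with a median log2 ratio of 0.05 that was −0.08 within plates. Rpl11 had the largest ratio, 0.47, which was −1.21 within plates and −0.18 by way of 8 somites. The kinase Hipk2 had 0.42 and the acetyltransferase Ep300 had −0.30, and both turned within plates, to −0.95 and 0.16. By way of 8 somites Hipk2 had 0.24 and Ep300 had 0.06. All 14 genes of the Treacher Collins and nucleolar list were measured and 0 passed 2-fold over all cells. Tcof1 had 135 RPM at 10 somites and 91.7 RPM at 4 somites, a log2 ratio of 0.55. The Tcof1 ratio was −1.002 within plates, just past 2-fold lower, and 0.12 by way of 8 somites.

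Of the BCL2 family, 9 of 14 genes were measured, 2 were higher and 1 was lower. Bok, a relative of Bax and Bak1, had 6.24 RPM at 10 somites and 18.5 RPM at 4 somites, a log2 ratio of −1.57 that was −3.09 within plates and −2.43 by way of 8 somites. Bcl2, the founding survival gene, had 10.3 RPM at 10 somites and 2.58 RPM at 4 somites, a log2 ratio of 1.99 that was 0.93 within plates and 0.42 by way of 8 somites. The BH3-only gene Bmf had a log2 ratio of 1.95 that was −0.89 within plates.

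Of the caspase machinery, 17 of 18 genes were measured and 0 passed 2-fold, with Casp2 at 0.79 and Apaf1, the apoptosome scaffold, at 0.48. Of 11 measured G1 inhibitors and cyclins, only Ccnd2 passed, at 274 RPM at 10 somites and 80.9 RPM at 4 somites, a log2 ratio of 1.76 that was 1.49 within plates and 1.51 by way of 8 somites. In the integrated stress response list 9 of 18 were measured, Shmt2 was higher at 1.05 and Vldlr lower at −2.67. Within plates Shmt2 had −0.10, so its call was lost, and Vldlr had −1.53. By way of 8 somites Shmt2 had 0.54 and Vldlr had −0.54, both under 2-fold.

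Fos, an immediate early gene that rises within minutes of cell stimulation or dissociation, was read in 38.2%, 29.0%, 17.2% and 29.6% of cells at 4, 6, 8 and 10 somites. At 50000 reads per cell these shares were 33.2%, 23.8%, 8.81% and 16.1%. Fos had 120, 78.5, 4.98 and 26.5 RPM at these stages. Its level differed widely between plates, with 3.58 and 211 RPM on both plates of 4 somites. Cells with and without a Fos read were therefore compared within each stage and plate number that had at least 10 cells on both sides, which gave 9 units, and a gene's value is the mean of the log2 ratios over the units with their SD. These classes were set by reads and not by a label, so the values are descriptions.

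Pmaip1 was the member that differed, at a mean log2 ratio of 1.63 ± 1.83 (SD, n = 9 units), higher in cells with Fos reads in 8 of 9 units. At 4 somites it had 28.5 RPM in cells with and 23.7 RPM in cells without Fos reads on plate D, and 105 RPM with and 44.7 RPM without on plate F. At 6 somites it had 27.6 RPM with and 7.04 RPM without on plate B, 58.7 and 13 RPM on plate E, 63.6 and 40.0 RPM on plate F, and 9.62 and 7.80 RPM on plate H, with each value for cells with Fos reads first. The unit of 8 somites went the other way, at 3.39 RPM with and 3.83 RPM without Fos reads.

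At 10 somites, Pmaip1 had 5.44 RPM with and 1.08 RPM without Fos reads on plate C. On plate B it had 8.93 RPM in 36 cells with Fos reads and 0 reads in 19 cells without, a log2 ratio of at least 5.87 against a floor of 3 reads, and at least 4.27 without the 1 cell that held 219 of its reads. Without that unit the mean was 1.10. At 50000 reads per cell, a Pmaip1 read was found in 69.9%, 59.3%, 10.0% and 12.5% of cells with a Fos read at 4, 6, 8 and 10 somites, and in 51.7%, 24.4%, 12.1% and 4.01% of cells without one.

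In this split 1 of the 6 members measured was higher and 0 were lower, with 0.663% of 8591 genes higher and 0.0582% lower. Mdm2 had 0.26 ± 0.36 (SD, n = 9 units), positive in 8 of 9, and Sesn2 had 0.27 ± 0.38, positive in 7 of 9. Trp53 had 0.04 ± 0.10 and Bax had −0.03 ± 0.23. Cdkn1a, below 5 RPM, had −0.07 ± 1.60, from −3.90 at 8 somites to 1.38, and the value at 8 somites was −2.99 without the 1 cell that held 195 of its reads there. Ccng1 had 0.06 ± 0.61, Phlda3 0.23 ± 0.69 and Bbc3 0.19 ± 0.72.

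Of the other p53 targets, 20 were measured and 1 was higher with Fos reads, Btg2 at 1.51 ± 0.42 (SD, n = 9 units) and positive in 9 of 9. Plk2 had 0.97 ± 1.44 and Sesn1, a relative of Sesn2, had −0.59 ± 1.81. The immediate early list had 9 of 11 measured genes higher, led by Egr1 at 4.27. Cells with Fos reads also differed in other markers. Of 9 measured surface ectoderm genes 3 were higher and 0 lower, and their summed level from 4 to 10 somites was 256, 264, 404 and 293 RPM with Fos reads and 233, 262, 167 and 57.1 RPM without. Of 7 measured neuroepithelium genes 0 passed 2-fold, at 302, 219, 185 and 154 RPM with Fos reads and 272, 184, 190 and 134 RPM without. Of 5 measured endothelium genes 2 were higher and 0 lower, at 70.8, 44.6, 150 and 129 RPM with Fos reads and 24.1, 71.9, 96.7 and 36.2 RPM without. All 3 measured erythroid genes were higher, with ratios in 3 or 4 of the 9 units, and the list summed to 0.512, 38.4, 513 and 2.95 RPM with Fos reads and 1.21, 58.6, 7.07 and 0.760 RPM without. Of 9 measured crest genes 0 passed 2-fold, with a median of −0.34 and sums of 109, 134, 636 and 604 RPM with Fos reads and 107, 265, 661 and 677 RPM without. The part of these markers in the Pmaip1 difference was not tested.

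Cells with and without a Sox10 read gave 8 units. Of the 6 members measured 0 were higher and 0 lower by 2-fold, with 1.13% of 8685 genes higher and 4.61% lower. Pmaip1 lay just inside the limit, at −0.996 ± 1.17 (SD, n = 8 units), lower in cells with Sox10 reads in 6 of 8. It had 1.76 RPM with and 9.46 RPM without Sox10 reads at 8 somites, and 0.895 RPM with and 6.68 RPM without on plate C of 10 somites. Its 2 positive units were plate F of 4 somites, at 92.2 RPM with and 71.4 RPM without, and plate B of 6 somites, at 12.6 RPM with and 11.6 RPM without.

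Trp53 was the only member that was positive in 7 of 8 units, at 0.16 ± 0.13, and Bax had 0.08 ± 0.18. Mdm2 had −0.22 ± 0.21, Ccng1 −0.66 ± 0.77 and Sesn2 −0.42 ± 0.70. Below 5 RPM, Phlda3 had −1.09 ± 1.28 with 1 of 8 units positive, Cdkn1a −0.62 ± 1.49 and Bbc3 −0.14 ± 0.43. At 8 somites the ratios rested partly on the 1 cell with the highest Cdkn1a level, which had no Sox10 read: Cdkn1a had −3.16 with it and −1.82 without it, Phlda3 −1.55 and −0.86, and Ccng1 −1.43 and −0.64.

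Of the other p53 targets 20 were measured in this split, 0 were higher and 2 were lower with Sox10 reads, Plk2 at −1.72 ± 1.86 and Sesn1 at −1.01 ± 1.09. Btg2 had −0.89 ± 0.51 and was lower in 8 of 8 units. Bok was lower in 8 of 8 units too, at −1.18 ± 0.60. The split also separated cell types, with 9 of 9 measured crest genes higher, 6 of 9 neuroepithelium genes lower and 1 higher, 7 of 8 surface ectoderm genes lower, and 5 of 5 mesoderm genes lower at a median of −2.61. The surface ectoderm list summed to 286, 161, 151 and 74.7 RPM with Sox10 reads and to 230, 310, 366 and 380 RPM without, from 4 to 10 somites. All 5 measured endothelium genes were lower too, at 5.67, 22.7, 45.5 and 36.1 RPM with Sox10 reads and 48.9, 82.3, 290 and 196 RPM without. The part of these lists in the values of the members was not tested.

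**Figure D4:**
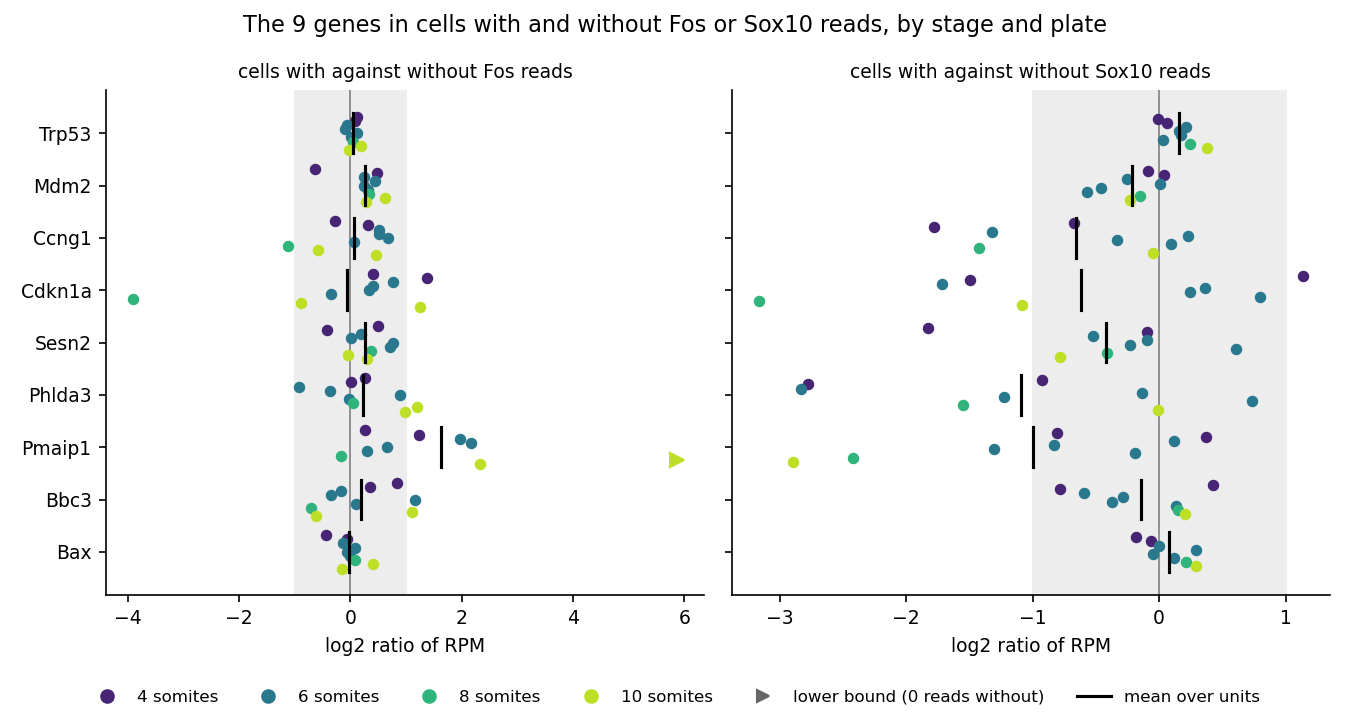
Log2 ratio of RPM for cells with against without Fos reads (left) and with against without Sox10 reads (right), for the 9 genes. Each point is 1 stage and plate number with at least 10 cells on both sides, coloured by stage, the triangle is a lower bound, black bars are means over units and the shaded band marks less than 2-fold; Pmaip1 is to the right of 0 in 8 of 9 units for Fos and to the left in 6 of 8 for Sox10.

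Within cells, the members did not vary as 1 group. Pearson's r of log2(RPM + 1) was taken over 1728 cells after centring on stage and plate number, where each point is 1 library and the points also differ in depth and in their Rn45s share, so the values are descriptions of sparse counts. Cdkn1a and Phlda3 had an r of 0.25, Ccng1 and Phlda3 0.22, and Ccng1 and Cdkn1a 0.16. Trp53 and Bax had 0.28. Pmaip1 had 0.12 with Ccng1, 0.10 with Cdkn1a and 0.02 with both Bbc3 and Bax.

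Among 10760 genes with a read in at least 10% of cells, Phlda3 was the most like Cdkn1a, and Cldn6, Cldn4, Krt7 and Trp53inp1 followed at 0.19, 0.18, 0.18 and 0.17, against a 99th percentile of 0.094. Claudins and keratin 7 are genes of epithelia, and Trp53inp1 is a p53 target. The genes most like Ccng1 were Phlda3 at 0.22, Cdkn1a at 0.16 and Trp53inp1 at 0.15. Tdrd7 and Eef1a1 followed closely at 0.14 each, against a 99th percentile of 0.11. Among the genes most like Pmaip1 were Sp8, En1, Pax2 and Hes3, at 0.41, 0.41, 0.39 and 0.38, against a 99th percentile of 0.19. En1 and Pax2 are transcription factor genes of the midbrain and hindbrain boundary region. Trp53 was most like Eif5a at 0.54, followed by Slc25a5, Ywhaq, Atp5b and Pa2g4, against a 99th percentile of 0.41, and these 5 genes had levels of 385 to 1329 RPM over all cells.

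Across the 12 groups of stage and plate number, among 6004 genes, the genes most like Pmaip1 were Pim2 at an r of 0.98, Mcf2 at 0.93 and Foxh1 at 0.93. Trp53 was most like Ruvbl1, Arf1 and Zfp207, at 0.98, 0.97 and 0.97, and these 4 genes moved over less than a 2-fold range between the groups. Cdkn1a was most like Hps1 at 0.90.

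Phlda3 was read in a larger share of the cells with a Cdkn1a read at each of the 4 stages, from few cells. At 50000 reads per cell, Phlda3 was read in 50% of 20 cells with a Cdkn1a read and in 9.39% of the others at 10 somites, in 44.4% of 9 cells and 7.34% at 8 somites, and in 16.7% of 60 cells and 5.29% at 6 somites. At 4 somites it was 10.0% of 10 cells, which is 1 cell, and 7.14% of the others. Ccng1 was read in 70.0% of the cells with and 39.0% of the cells without a Cdkn1a read at 10 somites.

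The cell with the highest Cdkn1a level was at 8 somites. It had 241 RPM of Cdkn1a, 1114 RPM of Ccng1, 180 RPM of Phlda3, 112 RPM of Sesn2, 232 RPM of Trp53inp1, 107 RPM of Mdm2, 70.3 RPM of Pmaip1, 35.8 RPM of Bbc3, 121 RPM of Bax and 429 RPM of Trp53. Each member other than Cdkn1a was thus above its level over the cells of that stage. The share of all genes above their stage level in this cell, and its share of Rn45s reads, are not given here. The third highest, at 6 somites, had 95.4 RPM of Cdkn1a, 248 RPM of Phlda3, 292 RPM of Ccng1, 264 RPM of Sesn2 and 65 RPM of Bbc3, with 12.2 RPM of Pmaip1. The second highest, at 4 somites, differed from both, with 100 RPM of Cdkn1a, 4.78 RPM of Ccng1 and 0 reads of Phlda3, Sesn2, Pmaip1 and Bbc3. These cells were chosen for their Cdkn1a level, so only the other genes are described by them.

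**Figure D5:**
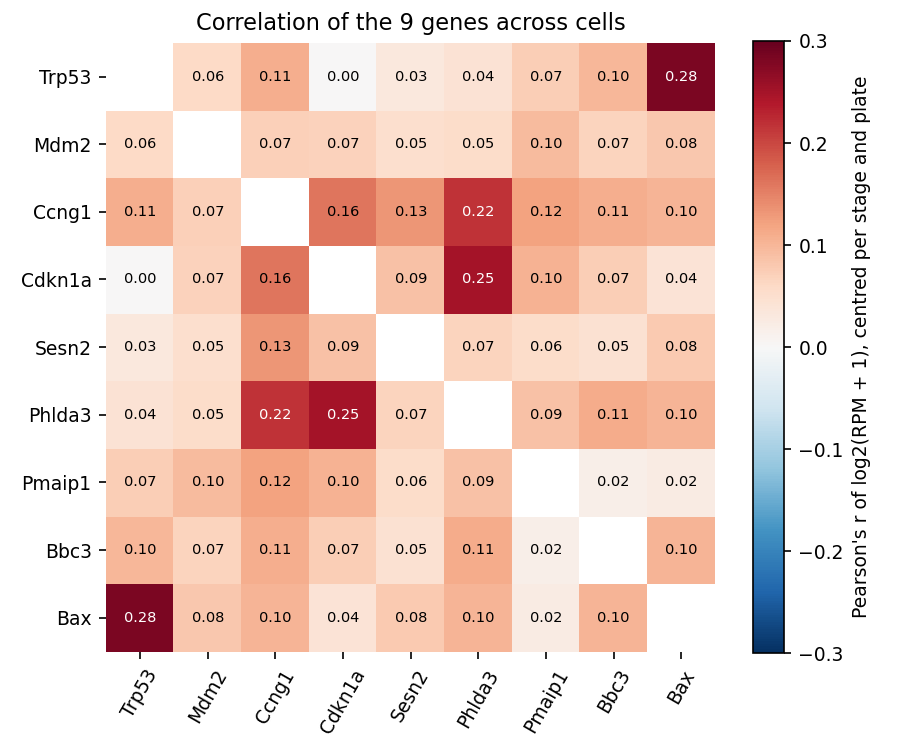
Pearson's r between the 9 genes across 1728 cells (log2(RPM + 1), centred per stage and plate number), with the colour scale from −0.3 to 0.3. Cdkn1a, Phlda3 and Ccng1 form the block with values of 0.16 to 0.25, Trp53 and Bax have 0.28, and Pmaip1 has at most 0.12 with any other member.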

How the data were processed

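Smart-Seq2 libraries of 1778 single cells were read from the deposited table, whose values are whole-number counts of reads per gene. Per the submitters' processing notes, bcl2fastq 2.18, STAR 2.6 and mm10 were used. The read counter, the annotation, strandedness and any filter by the authors were not stated (not given in the sources used here). Cells were grouped by the stage in the labels, and plate numbers come from the titles: plates A to H are 6150653, 6150657, 6150662, 6150663, 7350589, 7350590, 7350657 and 7350658. The 92 spike-ins were left out of totals.

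Cells with at least 50000 reads and 1500 genes were kept. Counts were summed over cells, divided by all gene reads including Rn45s and scaled to 1000000 (RPM). Log2 ratios have 0.5 reads added, a side with 0 reads is set at 3 reads, and no ratio was formed where both sides held 3 reads or fewer; this floor was set after seeing the data. Intervals are exact Poisson or Clopper-Pearson 95% intervals, which cover the error of counting alone. PCR copies of a molecule are counted as separate reads, so intervals of levels and ratios may be too narrow even for that error. A gene is measured with at least 5 RPM on either side. No test was run, because each stage is 1 pool of cells. Cells were thinned to 50000 reads for shares. A cell with no read of a gene at its depth may still express it.

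The members and the 14 gene lists were chosen with earlier results of these data known. In each list, up to 4 measured genes with the largest ratio between stages and up to 3 in a split were candidates for naming, and the likeness lists give up to 5 genes per member, with ribosomal and mitochondrial genes, pseudogenes, sex-linked markers and gene models without a name left out and, across groups, genes under 20 RPM in every group. Promoter sequences are from RefSeq (GRCm38.p6) and positions from GENCODE vM21. Alternatives changed the scaling (with factors from edgeR 4.0.16 and DESeq2 1.42.0, used only for that), the filters, the added reads, the class threshold and the plates. Within-plate ratios by way of 8 somites, ratios relative to the median gene, omission of units with 0 reads and omission of each of 2 single cells were added after seeing the data. The ratio code was tested on simulated data. Python 3.11.15, numpy 2.4.6, pandas 2.3.3, scipy 1.17.1, matplotlib 3.10.9 and R 4.3.3 were used.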

Additional observations from a re-analysis of the deposited data

Results flagged for a closer look

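Phlda3 had 7.18 RPM on plate B of 6 somites, which stood apart from the other 4 plates of that stage, at 1.72 to 3.14 RPM, by 0.739 of the whole range, against a critical value of 0.71. In that group 1 cell held 122 of the 408 Phlda3 reads, and the group had 5.07 RPM without it. Chance marks about 1 in 20 groups in this way, and 9 groups were examined.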

How the results depend on the processing

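For 10 against 4 somites, Pmaip1 stayed at least 2-fold lower under 21 of 21 alternatives (log2 ratios of −5.09 to −1.32), and for 8 against 6 somites under 19 of 19 (−3.21 to −1.71). For 6 against 4 somites it passed 2-fold under 5 of 18 (−1.79 to −0.47), and for 10 against 8 somites it kept its direction under 16 of 18 (−2.08 to 0.62). Phlda3 reversed for 10 against 4 somites, to −1.06 within plates and −0.31 by way of 8 somites, and to −1.04 and −0.28 by these routes without the 1 cell with most Pmaip1 reads. Bbc3, at 0.50 over all cells, was at −0.79 within plates.

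The number of members past 2-fold moved as follows. For 10 against 4 somites it was 2 in place of 1 with no minimum RPM, which adds Phlda3, and 2 in cells with a Sox10 read, where Ccng1 had 1.09. For 6 against 4 somites it was 1 in place of 0 with the mean of RPM per cell, with equal weight per plate and in cells without Fos reads, in each case Pmaip1, and 2 in cells with a Sox10 read, where Sesn2 had 1.19. For 8 against 6 somites it was 2 in place of 1 with no minimum RPM, which adds Bbc3, and 2 in cells without Sox10 reads, where Ccng1 had 1.51. For 10 against 8 somites it was 1 in place of 0 in cells without Sox10 reads, where Ccng1 had −1.35. For the Fos split it was 0 in place of 1 with the mean of RPM per cell, where Pmaip1 had 0.98 and the unit with 0 reads formed no ratio. For the Sox10 split it was 1 in place of 0, in each case Pmaip1, with the class set after thinning or by at least 10 reads, with 1 pooled ratio, and with at least 200000 reads and 3000 genes per cell. Where not stated, the cause was not tested.

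With each plate number left out in turn, the number ran from 0 to 2 for 6 against 4 somites (2 without D, with Ccng1 at −1.06 and Pmaip1 at −1.45), from 0 to 1 for 10 against 8 somites (1 without B, with Ccng1 at 1.03) and from 0 to 1 for the Sox10 split (1 without D, E, F or H, with Pmaip1 at −1.17 to −1.02). No paired analysis was possible because each stage is 1 pool of cells and the labels name no embryo. Members under 5 RPM, Cdkn1a, Phlda3 and Bbc3, rest on few cells at this depth.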
